A study of Mus musculus with 40 samples.

Results

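The angiopoietins and the Tie receptors are represented by 4 genes, Angpt1, Angpt2, Tek and Tie1. They were taken from the table of normalized counts by matching its Ensembl identifiers to these mouse symbols, and they are 4 of 54307 listed genes. All 40 libraries were used.

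The libraries came from the choroid and the retina of 20 mice, so that each mouse gave both tissues. Eyes had received 6 laser burns each, which break the membrane beneath the retinal pigment epithelium and provoke growth of choroidal vessels, and tissue was taken 3 days later. The mice formed 4 groups of 5 by genotype, control or Tgfbr2ΔEC, and by diet, without (- PLX) or with (+ PLX) the CSF1 receptor inhibitor PLX5622. Endothelial loss of the TGF-β type II receptor and depletion of mononuclear phagocytes (MP) were the conditions compared. All mice carried floxed Tgfbr2 alleles, and all were given tamoxifen eye drops for 5 days from an age of 6 to 7 weeks. Tgfbr2ΔEC mice also carried the tamoxifen-inducible recombinase Cdh5-CreERT2, which is active in endothelial cells, and controls were littermates without it. The PLX diet began with the first tamoxifen drops. The choroid was its central part, and every library was RNA of whole tissue.

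Tek (also named Tie2) is a receptor tyrosine kinase found mainly on endothelial cells. Angpt1, released mostly by cells around the vessel, activates it and keeps vessels quiescent. Angpt2, released by activated endothelial cells among others, acts on Tek as a context-dependent partial agonist or antagonist. Tie1 is a related receptor without a classical ligand of its own that pairs with Tek and modulates its signal.

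In GRCm39, with positions from GENCODE, Angpt1 (ENSMUSG00000022309) spans 42288058 to 42540417 on the minus strand of chromosome 15. Angpt2 (ENSMUSG00000031465) spans 18739202 to 18791603 on the minus strand of chromosome 8. Both receptor genes lie on chromosome 4, Tek (ENSMUSG00000006386) from 94627291 to 94763224 on the plus strand and Tie1 (ENSMUSG00000033191) from 118328385 to 118347261 on the minus strand. All are protein-coding.

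Because Tek and Tie1 moved together in what follows, their promoters are shown, from 250 bases before to 50 bases from the annotated start site on, read 5′ to 3′ along the gene. The window of Tek is chr4:94627041-94627340 on the plus strand and that of Tie1 is chr4:118347209-118347508 on the minus strand of GRCm39. Capitals mark matches on either strand to 5 short motifs.
Tek: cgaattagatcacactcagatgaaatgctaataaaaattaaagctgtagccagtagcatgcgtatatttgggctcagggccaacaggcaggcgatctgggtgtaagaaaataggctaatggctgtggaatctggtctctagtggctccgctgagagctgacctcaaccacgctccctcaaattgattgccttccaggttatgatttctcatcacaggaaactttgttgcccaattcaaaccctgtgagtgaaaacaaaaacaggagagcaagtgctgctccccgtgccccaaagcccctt
Tie1: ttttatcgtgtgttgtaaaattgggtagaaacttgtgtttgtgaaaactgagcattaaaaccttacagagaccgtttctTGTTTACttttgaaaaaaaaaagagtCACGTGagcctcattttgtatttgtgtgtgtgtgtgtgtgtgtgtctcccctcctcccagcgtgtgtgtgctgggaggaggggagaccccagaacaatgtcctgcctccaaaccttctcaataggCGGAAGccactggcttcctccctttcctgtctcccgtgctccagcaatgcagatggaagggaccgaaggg

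The first motif searched was an ETS core, spelled CGGAAG, the core letters that endothelial ETS factors share. The FOXO core was GTAAACA, after the family of Foxo1. For GATA factors the letters AGATAA were used. The hypoxia element core was ACGTG, and the TATA box was TATAAA. The Tie1 window held the ETS core, the FOXO core on the opposite strand, and the hypoxia element core on both strands with its letters overlapping in CACGTG. Of 21770 promoters of protein-coding genes cut to the same length, 19.3% held the ETS core, 3.15% the FOXO core and 20.7% the hypoxia element core. The Tek window held none of the 5 letter strings, of which the GATA core was found in 10.6% and the TATA box in 13.2% of promoters. A match of letters was not a measured binding site.

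Depth was roughly 21556111 to 28268529 reads for a choroid library and 20903242 to 30421581 for a retina library, estimated from the steps between low values. The floxed gene did not separate the genotypes in the choroid: among choroids without PLX, controls had 10503 ± 425 normalized counts of Tgfbr2 (SD over 5 mice) and Tgfbr2ΔEC mice 10176 ± 1077. With PLX the values were 11155 ± 1529.8 in controls and 11219.9 ± 454 in Tgfbr2ΔEC mice. Retinal Tgfbr2 was 213 ± 55.4 and 178 ± 73.8 normalized counts without PLX and 123 ± 35.7 and 112.9 ± 20.003 with PLX, in controls and Tgfbr2ΔEC mice respectively. The paper reports that Tgfbr2 was deleted in choroidal and retinal endothelium, and checked this by PCR and qPCR of choroidal tissue. Gene totals of whole tissue do not measure endothelial cells alone. The 17 MP markers summed to between 48481.8 and 56940.3 normalized counts per choroid without PLX and to between 12819.3 and 18917.7 with PLX. In the retina their sum lay between 2597 and 5789.9 without PLX and between 640.4 and 842 with PLX. A sum is weighted toward its most abundant markers. The median log2 difference with PLX over the 17 markers was -2.46 in choroid and -5.4 in retina. The tissue labels could be checked from 10 neural retina markers, whose sum lay between 1035430 and 1542450 per retina and between 4013.9 and 138483 per choroid. They were thus present in the choroids too, at amounts that varied among them. Choroids also held skeletal muscle RNA, its 8 markers summing to between 19484.4 and 163193 normalized counts, against at most 181 per retina. Sums per choroid were 360219 to 568019 for 6 fibroblast markers and 224354 to 449892 for 8 pigment epithelium markers. The part of these tissues in the levels of the members was not tested. No 2 libraries were identical.

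The first question was where the members were expressed. All 4 were higher in choroid than in retina in each of the 20 mice, with ligand and receptor levels that differed by very unequal factors. Angpt1 ranged from 2274 to 4689 normalized counts with a median of 3536 in the choroids, and from 21.01 to 66.7 with a median of 42.4 in the retinas, a ratio of means of 87.0. Angpt2 ranged from 289 to 522 with a median of 435 in choroid and from 90.7 to 222 with a median of 128 in retina, a ratio of 3.27. Neither ligand overlapped between the tissues, and every choroid lay above every retina for 18.6% of the 24317 genes tested.

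Among the receptors, Tek ranged from 1858 to 2724 normalized counts with a median of 2223 in choroid and from 125 to 272 with a median of 160.2 in retina, a ratio of means of 13.2. Tie1 ranged from 2609 to 4276 with a median of 3253 in choroid and from 74.2 to 180.5 with a median of 106 in retina, a ratio of 30.5. The tissues were again fully separate. The differences on the log2(normalized count + 1) scale, with standard errors, were 6.43 ± 0.11 for Angpt1, 4.95 ± 0.08 for Tie1, 3.73 ± 0.06 for Tek and 1.72 ± 0.09 for Angpt2. By limma with Benjamini-Hochberg adjustment over all genes tested, 4 of 4 members were called higher in choroid, at an adjusted p at or under 0.05. The same was true of 40.8% of the 24317 genes tested. The 12 endothelial markers served as a comparison list and held none of the members. They were also all called higher, with a median difference of 4.48 against -0.01 over all genes. So were 10 of 10 mural (pericyte and smooth muscle) markers (median 4.59), 16 of 17 MP markers (5.91), 6 of 6 fibroblast and 8 of 8 skeletal muscle markers. All 10 neural retina markers were called lower. Relative to the mean log2 value of the endothelial markers in a library, the difference was -0.58 for Tek and 0.64 for Tie1. On that measure Tek was lower and Tie1 higher in choroid (permutation of signs within mice, p = 1e-05 each). RNA of whole tissue does not tell fewer cells of a type from less RNA per cell.

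Levels of different genes were compared per kilobase of the longest coding transcript. In the choroid Angpt1 stood at 792 ± 158 normalized counts per kilobase (SD, n = 20 mice), Tie1 at 737 ± 98.9, Tek at 455 ± 50.7 and Angpt2 at 90.8 ± 13.4. Angpt1 and Tie1 did not differ beyond their spread, Angpt1 being the higher in 12 of 20 mice (permutation of signs within mice, p = 0.218), while Tie1 exceeded Tek and Tek exceeded Angpt2 in 20 of 20 mice each. In the retina the order was Tek at 34.5 ± 7.32, Angpt2 at 27.8 ± 6.77, Tie1 at 24.2 ± 6.56 and Angpt1 at 9.10 ± 2.43. Tek exceeded Angpt2 in 17 of 20 mice (p = 0.00172 by the same permutation test), Angpt2 exceeded Tie1 in 16 of 20 (p = 0.0674), and Tie1 exceeded Angpt1 in 20 of 20. The choice of length mattered for both orders. Per kilobase of all exons joined, Tie1 at 669 ± 89.8 led Angpt1 at 496 ± 99.1 in the choroid, and Tek was above Angpt2 in only 10 of 20 retinas.

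**Figure D1:**
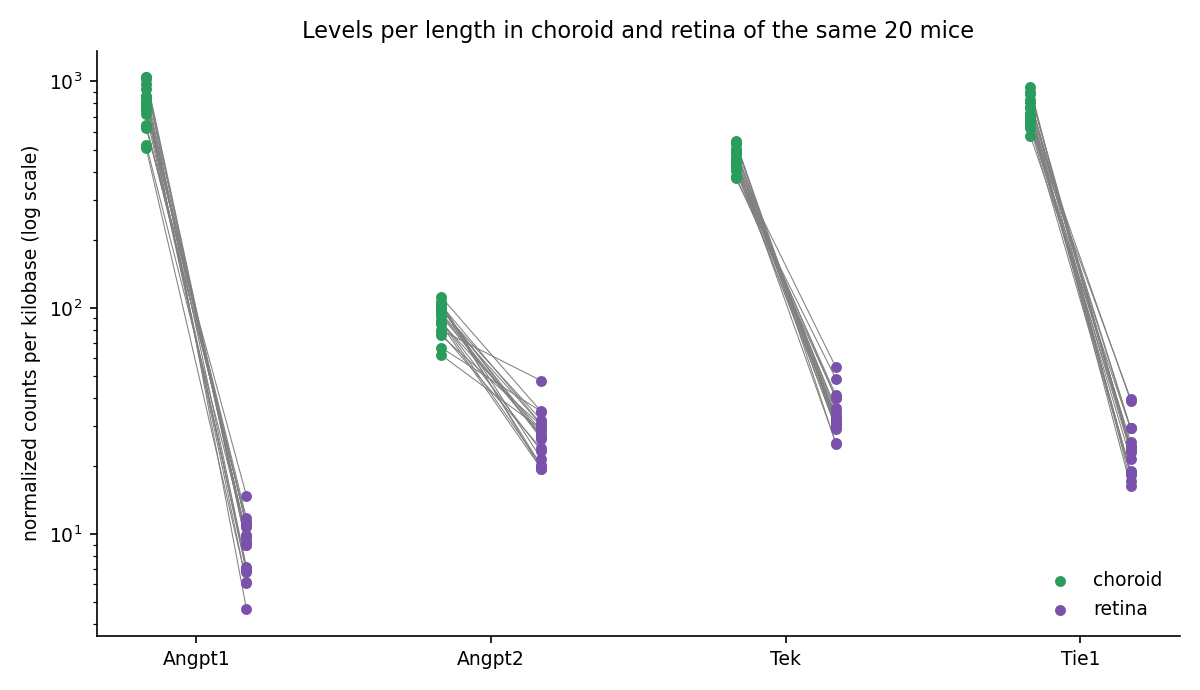
Normalized counts per kilobase of the longest coding transcript (log axis) for each member, with 1 point per mouse in choroid and retina and a line joining the tissues of a mouse. Every line falls from choroid to retina; Angpt1 goes from the highest mean of the 4 (792) to the lowest (9.10), while Angpt2 changes least.

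The balance of the ligands therefore differed between the tissues. The ratio of Angpt2 to Angpt1 within a library had a median of 0.115 in the choroids, with a range of 0.0786 to 0.203, and of 3.15 in the retinas, with a range of 2.13 to 7.11. Angpt1 was the more abundant ligand in 20 of 20 choroids and Angpt2 in 20 of 20 retinas. Which cells of a tissue held the RNA of either ligand was not tested. The log2 ratio was -3.06 ± 0.34 (SD, n = 20) in choroid and 1.65 ± 0.47 in retina, a difference of -4.71 (p = 1e-05, the smallest that 100000 changes of sign could give in this permutation test). The receptors changed places as well: Tie1 was above Tek in 20 of 20 choroids, at a median ratio of 1.46, and below it in 20 of 20 retinas, at a median ratio of 0.662. Per kilobase of the longest coding transcript the median receptor ratios were 1.59 and 0.725, again above 1 in 20 of 20 choroids and below 1 in 20 of 20 retinas. Per kilobase of all exons joined they were 1.75 and 0.795, and Tie1 was then above Tek in 2 of 20 retinas.

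The PLX diet was compared next, over both genotypes, to see whether the members followed the removal of MP. In the choroid both receptors rose with PLX. Tek stood at 1894, 2017, 2115, 2140.4 and 2248 normalized counts in control - PLX mice, and at 2009.7, 2198, 2305, 2389.7 and 2696 in control + PLX mice. In Tgfbr2ΔEC mice it stood at 1858, 2075, 2121, 2161 and 2275 without PLX, and at 2457, 2461, 2487, 2625 and 2724 with PLX. The diets overlapped in controls. In Tgfbr2ΔEC mice every choroid with PLX lay above every choroid without, which was so for 1.36% of the genes tested; Tek was not called for a different genotype effect under the diets. The log2 difference was 0.22 (95% interval 0.10 to 0.33), a ratio of means of 1.16 (adjusted p = 0.0175; limma, Benjamini-Hochberg adjustment). This call was lost once the neural retina score entered the fit, where the difference was 0.20 (adjusted p = 0.0674 by limma). The score itself differed by -1.04 between the diets in choroid (exact permutation p = 0.11), with 10 of 10 markers negative and 0 called.

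Tie1 stood at 2609, 2842, 2889, 2901 and 3196 normalized counts in control - PLX choroids and at 3067, 3261, 3702, 4067 and 4276 in control + PLX choroids. In Tgfbr2ΔEC choroids it stood at 3013, 3075, 3095, 3246 and 3459 without PLX and at 3260.2, 3505, 3722, 3747 and 3982 with PLX. In each genotype 4 of 5 choroids with PLX lay above all those without. The log2 difference was 0.27 (95% interval 0.14 to 0.40), a ratio of means of 1.21 (adjusted p = 0.00872 by limma). With exact relabelling of diet within genotype, p was 0.000567 for Tek and 0.000283 for Tie1 (two-sided permutation test). Thus 2 of 4 members were called higher, against 2.07% of 23619 genes tested.

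The ligands had differences of like size in the choroid but were not called. Angpt1 stood at 2356, 2829.8, 3243, 3587 and 3683 normalized counts in control - PLX and at 3379, 3466, 3821, 4382 and 4683 in control + PLX choroids. In Tgfbr2ΔEC choroids it stood at 2274, 2880.3, 3463, 3485 and 3868 without PLX and at 2803, 3594, 4147, 4595 and 4689 with PLX. The diets overlapped in both genotypes, with a log2 difference of 0.32 (95% interval 0.09 to 0.56; adjusted p = 0.1002 by limma; exact permutation p = 0.0148). Angpt1 varied more among mice of a group than the receptors did.

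Angpt2 stood at 289, 372, 395, 409 and 478 normalized counts in control - PLX and at 431, 439, 456, 463 and 522 in control + PLX choroids. In Tgfbr2ΔEC choroids it stood at 311, 353, 360.3, 403 and 471 without PLX and at 407, 442, 480.3, 488 and 494 with PLX. All 10 choroids with PLX were above the median of those without, but the groups overlapped. The log2 difference was 0.28 (95% interval 0.09 to 0.47; adjusted p = 0.0657 by limma; exact permutation p = 0.00312). Both ligands passed the threshold under upper quartile scaling, which shifted the median of all genes to 0.06, at differences of 0.38 for Angpt1 (adjusted p = 0.0415 by limma) and 0.34 for Angpt2 (adjusted p = 0.0271). The log2 ratio of Angpt2 to Angpt1 was -3.03 ± 0.39 (SD, n = 10) without and -3.08 ± 0.30 with PLX, a difference of -0.04 (permutation test, p = 0.779).

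**Figure D2:**
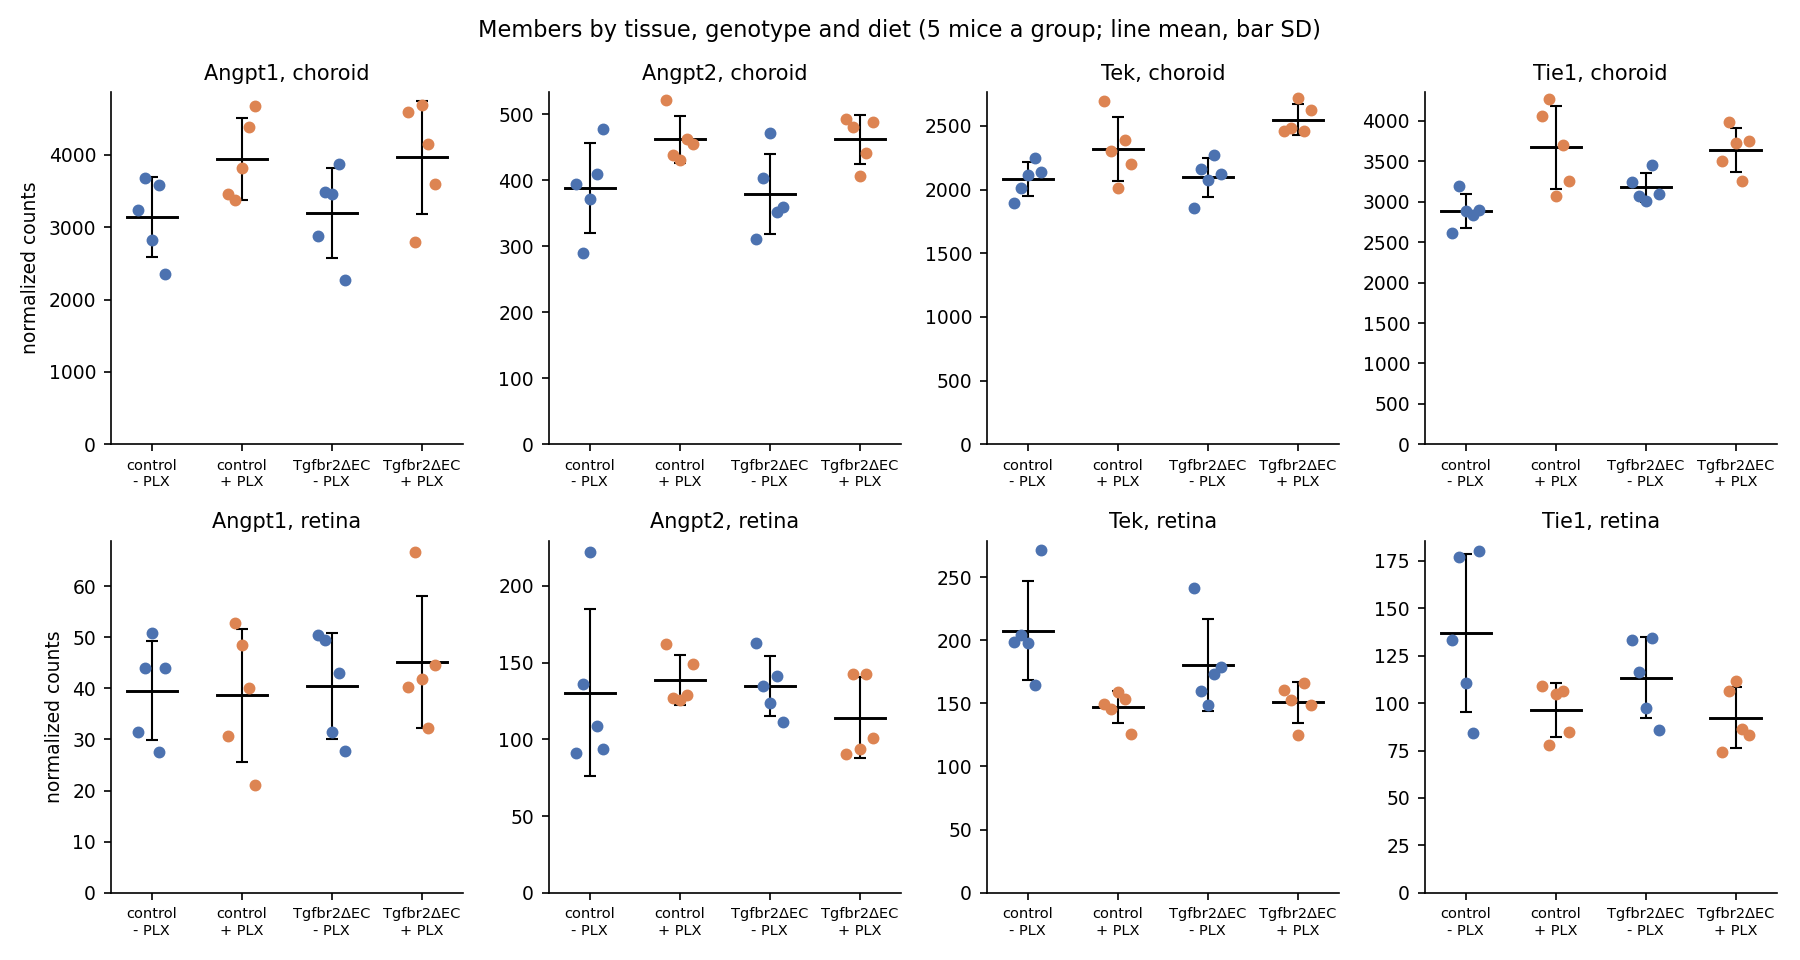
Normalized counts of the 4 members in each of the 40 libraries, choroid in the upper row and retina in the lower, by genotype and diet (5 mice a group; points are mice, lines means, bars SD; axes start at 0 and differ between panels). With PLX the choroid values of Tek and Tie1 lie higher (means 2435 and 3659 against 2090.3 and 3032) and their retina values lower (149 and 94.5 against 194 and 125).

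In the retina 0 of 4 members were called, and 1.09% of 23243 genes tested were called by limma in either direction. Tek stood at 164, 198, 199, 204 and 272 normalized counts in control - PLX and at 126, 146, 149.9, 154 and 159 in control + PLX retinas. In Tgfbr2ΔEC retinas it stood at 149, 159.7, 173, 179 and 242 without PLX and at 125, 149, 153, 161 and 166 with PLX. Every control retina with PLX was below every one without, as for 1.16% of the genes tested. The Tgfbr2ΔEC groups overlapped, and here too no difference between the genotypes was called. The log2 difference was -0.36 (95% interval -0.59 to -0.14; adjusted p = 0.200 by limma; exact permutation p = 0.000787).

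Tie1 stood at 84.2, 111, 133, 177 and 180.5 normalized counts in control - PLX and at 78.0, 84.7, 105, 106 and 109 in control + PLX retinas. In Tgfbr2ΔEC retinas it stood at 85.7, 97.5, 117, 133 and 134 without PLX and at 74.2, 83.3, 86.4, 107 and 111 with PLX. The diets overlapped in both genotypes, although all 10 retinas with PLX lay below the median of those without. The log2 difference was -0.37 (95% interval -0.68 to -0.06; adjusted p = 0.556 by limma; exact permutation p = 0.0169).

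For the retinal ligands no direction could be given. Angpt1 ranged from 27.5 to 50.9 normalized counts (median 43.5) without and from 21.01 to 66.7 (median 41.0) with PLX, a log2 difference of 0.04 (95% interval -0.37 to 0.45). Angpt2 ranged from 90.9 to 222 (median 129) without and from 90.7 to 162 (median 128) with PLX, a difference of -0.05 (95% interval -0.36 to 0.27). At these levels, where 1 read was worth roughly 0.745 to 1.13 normalized counts, retinal Angpt1 rested on few reads per library.

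With a limma fit that did not pair the tissues of a mouse, the difference of the diet effect between the tissues was tested directly. It was called for Tek, at 0.58 on the log2 scale (95% interval 0.35 to 0.81; adjusted p = 0.00172 by limma), and for Tie1, at 0.64 (95% interval 0.33 to 0.95; adjusted p = 0.0175). Relabelling diet within genotype on the differences within each mouse gave p = 9.45e-05 for Tek and p = 0.000315 for Tie1 (exact permutation tests). Thus 2 of 4 members were called with a more positive effect in choroid, against 0.543% of 24317 genes. The call of Tie1 was lost without mouse 12, a control + PLX mouse (0.58, adjusted p = 0.0517 by limma). With the mouse as a block both receptors stayed called. Angpt1 at 0.28 (95% interval -0.16 to 0.72) and Angpt2 at 0.32 (-0.03 to 0.68) were not called.

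**Figure D3:**
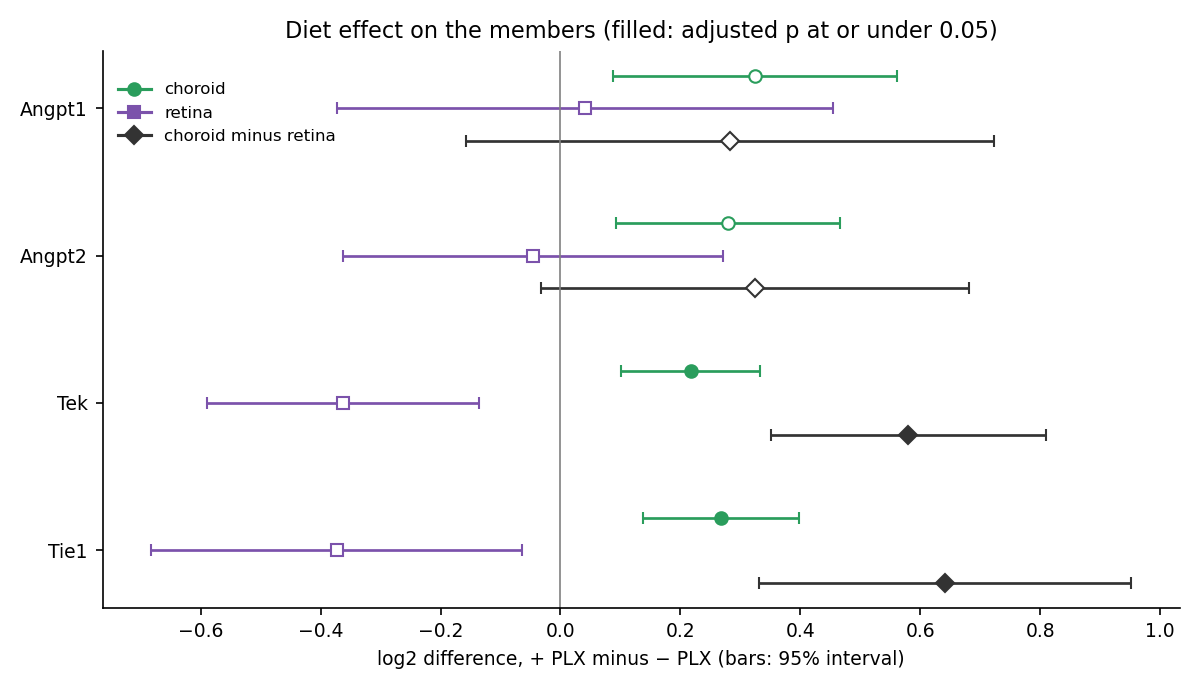
Log2 difference of each member between mice with and without PLX in choroid and retina, and the difference between these effects, each with its 95% interval from limma. Filled symbols had an adjusted p at or under 0.05: only Tek and Tie1 in choroid (0.22 and 0.27) and in the difference between tissues (0.58 and 0.64).

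With the diet, scores of endothelial, mural and fibroblast markers lay on the same side as the receptors, higher in choroid and lower in retina. In retina the mural and fibroblast differences were not detectable by exact permutation. The endothelial score, the mean log2(normalized count + 1) of the 12 markers, was 10.82 ± 0.10 (SD, n = 10) without and 11.06 ± 0.12 with PLX in choroid, a difference of 0.23 (exact permutation p = 0.000378). In retina it was 6.75 ± 0.23 without and 6.50 ± 0.22 with PLX, a difference of -0.25 (exact permutation p = 0.0263). Of the markers, 4 of 12 were called higher with PLX in choroid (Cldn5, Egfl7, Esam and Pecam1) and 0 of 12 in retina, and their sum ranged from 27350.4 to 32754 normalized counts per choroid without and from 30086.5 to 37932 with PLX. Measured against this score in the same library, Tek differed between the diets by -0.02 in choroid and -0.12 in retina, and Tie1 by 0.03 and -0.13. Their exact permutation p-values were 0.700, 0.320, 0.394 and 0.319, so neither receptor departed detectably from the endothelial score with diet.

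Mural cells, the pericytes and smooth muscle cells that release Angpt1, were followed by 10 markers, of which Myh11 and Rgs5 were called higher with PLX in choroid. The mural score was 11.88 ± 0.18 (SD, n = 10) without and 12.13 ± 0.12 with PLX in choroid, a difference of 0.24 (exact permutation p = 0.00255), and differed by -0.15 in retina (exact permutation p = 0.0872). The sum of these markers ranged from 45933.7 to 69206 normalized counts per choroid without and from 61341.5 to 80385 with PLX. None of the endothelial, mural or MP markers was at 0 throughout. In retina 0 of 10 mural markers were called. The score of 6 fibroblast markers, of which 1 was called higher, differed by 0.18 in choroid (exact permutation p = 0.00898) and by -0.34 in retina (exact permutation p = 0.210). Of the MP markers, 16 of 17 were called lower with PLX in each tissue, also in choroid, where the receptors were higher. The part of mural cells, fibroblasts and MP in the receptor differences was not tested.

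Across the 20 choroids Tek and Tie1 varied together, with Pearson's r = 0.73 and Spearman's rho = 0.75 (permutation tests with 100000 resamples, p = 0.00038 and 0.00018). Over 52 relations computed, the Benjamini-Hochberg adjusted p-values were 0.00494 and 0.00312. Within groups, after subtracting group means, r was 0.54, and without the 2 choroids farthest from the median of Tek it was 0.66. In retina r was 0.68 (adjusted permutation p = 0.00919) and rho 0.55 (0.0508), with 0.46 after subtracting group means and 0.50 without the 2 farthest retinas. In choroid the endothelial score followed Tie1 with r = 0.91 and rho = 0.91 (adjusted permutation p = 0.00026 and 0.00052) and Tek with r = 0.83 and rho = 0.80 (0.00026 and 0.00104). Within a diet, over 10 choroids each, r with the score was 0.57 without and 0.69 with PLX for Tek, and 0.67 and 0.88 for Tie1. In retina the score followed Tie1 with r = 0.66 and rho = 0.61 (adjusted permutation p = 0.00982 and 0.0291) and Tek with r = 0.57 and rho = 0.42 (0.0302 and 0.189). After subtracting group means these r were 0.51 and 0.35. Within a diet, over 10 retinas each, r was 0.45 without and 0.25 with PLX for Tek, and 0.59 and 0.48 for Tie1. The 52 relations include those with the MP score, whose values fell into separate clusters by diet, so that no r over both diets is given. With group means subtracted, r with the MP score was -0.20 for Tek and 0.29 for Tie1 in choroid, and 0.28 for Tek and 0.55 for Tie1 in retina.

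**Figure D4:**
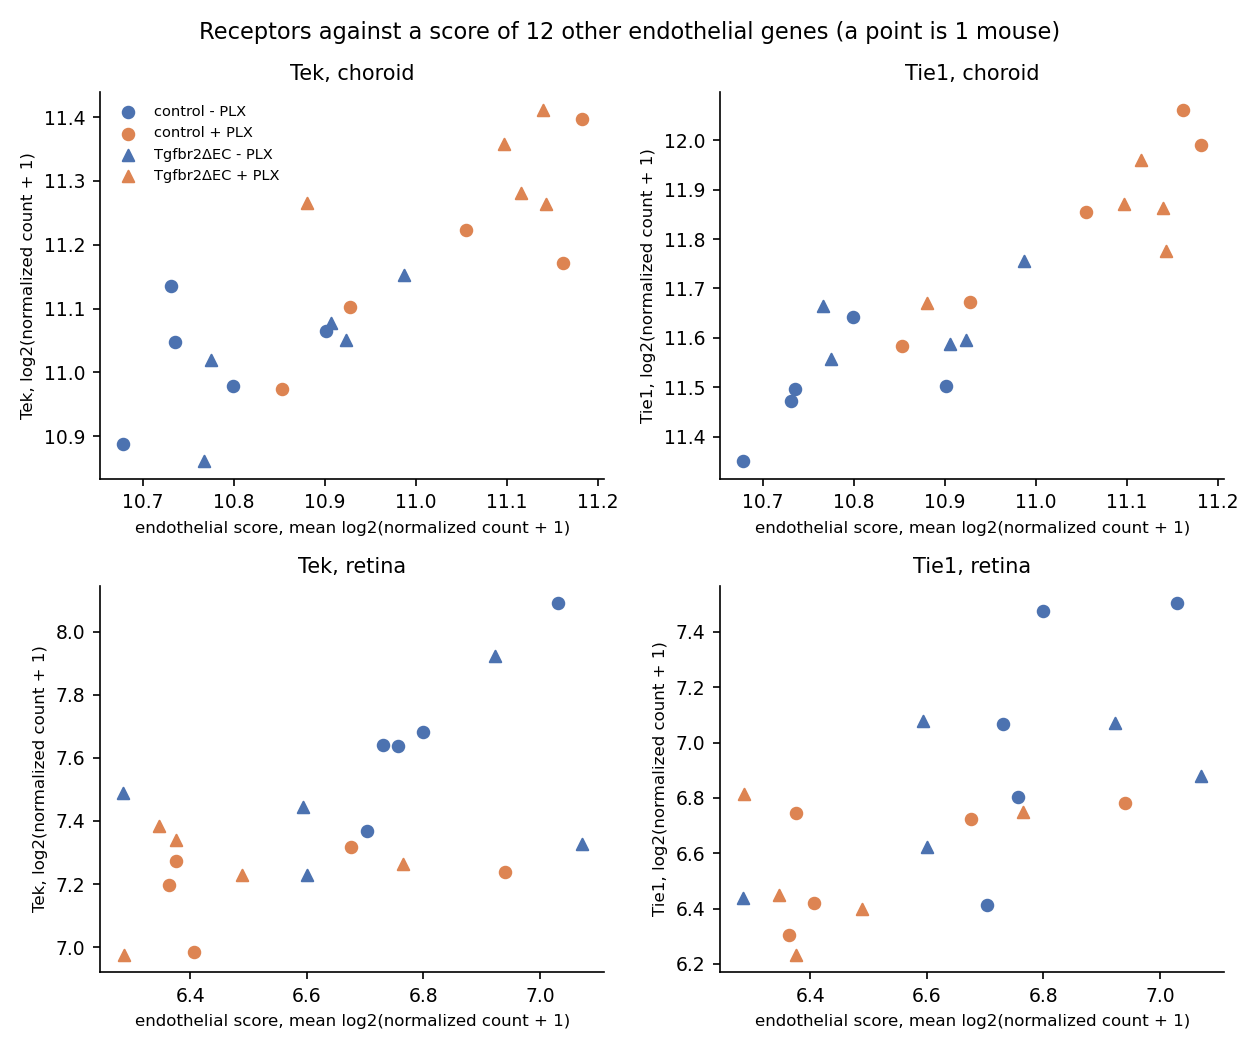
Tek and Tie1 against the endothelial score in choroid (upper row) and retina (lower row), all as log2(normalized count + 1), with 1 point per mouse, colour for diet and shape for genotype. In choroid both receptors climb with the score (r = 0.83 and 0.91) and mice with PLX sit toward the upper right; in retina the spread around the relation is wider (r = 0.57 with rho = 0.42 for Tek, and r = 0.66 with rho = 0.61 for Tie1).

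For choroid Angpt1 the relation with the mural score had the larger r, a difference that was not tested. Its r with the endothelial score was 0.29 in choroid (adjusted permutation p = 0.367; rho 0.29, adjusted p = 0.412), while with the mural score it was 0.64 (adjusted p = 0.0121; rho 0.66, adjusted p = 0.0160). The latter was 0.46 after subtracting group means and 0.63 without the 2 choroids farthest from the median. Choroid Tek and Tie1 had r = 0.51 and 0.46 with the mural score (adjusted permutation p = 0.0670 and 0.125). In retina the r of Angpt1 was 0.06 with the mural and 0.31 with the endothelial score (adjusted permutation p = 0.891 and 0.356). Choroid Angpt2 followed Tek with r = 0.61 (adjusted permutation p = 0.0190; rho 0.60, adjusted p = 0.0291), which fell to 0.46 without the 2 farthest choroids and to 0.33 after subtracting group means.

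The genes whose log2 values were most like those of a member, by Pearson's r over 20 choroids and the 14434 genes averaging 50 or more, were Piezo2, Itpr3 and Bicc1 for Tek (r from 0.89 to 0.91) and Card10, Ephb4 and Rasip1 for Tie1 (0.86 to 0.89). For Angpt1 they were Cpm, Clstn2 and Tgfb3 (0.85 to 0.91) and for Angpt2 BC106179, Sorcs2 and Gpcpd1 (0.76 to 0.86). In retina, over 13825 genes, they were H2-Aa, Pik3ap1 and Nckap1l for Tek (0.83 to 0.85), genes known from myeloid cells. These r span both diets, and with group means subtracted they were 0.64 to 0.67. For retinal Tie1 they were Tmem237, Carhsp1 and Tmbim4 (0.79 to 0.80) and for Angpt2 Sugt1, Plekha3 and Lysmd2 (0.71 to 0.83). Angpt1 was below that level in retina. These are descriptions over libraries that share the contrasts of diet and genotype.

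Endothelial deletion of Tgfbr2 was the other question, and 0 of 4 members were called between the genotypes in any of the comparisons. In choroid, 0.00423% of genes were called by limma without PLX and 0.00423% with PLX, and 0% in retina under either diet. The share without PLX in choroid, 1 gene, was not stable. Without mouse 15, 411 genes were called, and 303 in a fit of only the 10 mice compared, with 0 members in each case. Mouse 15 was a control + PLX mouse, so it entered this comparison only through the shared fit. Its choroid neural retina score was 12.86, against 7.69 to 10.02 in the other choroids of its group. Whether this mattered was not tested. By the unadjusted limma p under 0.05, 2184 and 889 genes in choroid and 758 and 629 in retina passed, none of them a member. Without PLX, Tgfbr2ΔEC and control choroids differed by 0.02 for Angpt1 (95% interval -0.32 to 0.36), -0.03 for Angpt2 (-0.29 to 0.23) and 0.01 for Tek (-0.15 to 0.17) on the log2 scale. Tie1 differed by 0.14 (-0.04 to 0.32), at 3178 ± 179 against 2887 ± 209 normalized counts (SD, n = 5; exact permutation p = 0.0397; adjusted p = 0.722 by limma). The neural retina score was 2.39 higher in these Tgfbr2ΔEC choroids (exact permutation p = 0.00794, the smallest that 5 against 5 mice allow). With this score in the fit, the differences were -0.16 for Angpt1, -0.02 for Angpt2, 0.04 for Tek and 0.20 for Tie1, and none was called by limma.

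With PLX the genotypes differed in choroid by 0.14 for Tek (95% interval -0.02 to 0.31), and by 0.01 or less in size for Angpt1, Angpt2 and Tie1. In retina the differences without PLX were 0.03 for Angpt1, 0.12 for Angpt2, -0.20 for Tek and -0.23 for Tie1, and with PLX 0.25, -0.30, 0.04 and -0.07. Their 95% intervals all held 0 and were widest for Angpt1, reaching from -0.34 to 0.83 with PLX, whereas for Tek they spanned -0.52 to 0.12 in mice off the diet and -0.28 to 0.36 in mice on it. Whether the genotype effect differed between the diets was tested too, and 0 of 4 members were called in either tissue. The background was 0% of genes in choroid, where 1552 had an unadjusted limma p under 0.05, and 0% in retina, where 567 did.

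The remaining genes of the pathway were read for the diet comparison, from lists given here by their counts. Among 9 further ligands and modulators of Tie receptors, 8 were tested in choroid and 1 was called lower, with a median difference of -0.09 against 0.00 over all genes tested. Of all 23619 genes tested, 5.06% were called lower and, as above, 2.07% higher. The gene called was Adam17, a protease that sheds membrane proteins (-0.35, standard error 0.06, adjusted p = 0.000226 by limma). Ptprb, the phosphatase VE-PTP that restrains Tek, ranged from 4724 to 7715 normalized counts without and from 5649 to 9827 with PLX, a difference of 0.33 (adjusted p = 0.0571). Svep1, an extracellular protein that binds Tie1, had a difference of 0.36 (adjusted p = 0.0597). Angpt4, a further ligand of Tek, ranged from 49.3 to 112 without and from 25.9 to 85.0 with PLX (-0.52, adjusted p = 0.147). Lect2 was listed at 0 in every library.

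Of 26 signalling genes below the receptors, 2 were called higher (background 2.07%) and 3 lower (background 5.06%) with PLX in choroid, with a median of -0.03. Those higher were Nos3, the endothelial nitric oxide synthase (0.32, adjusted p = 0.0397 by limma), and Foxo4, a forkhead factor (0.23, adjusted p = 0.0338). Those lower were Dok2, an adaptor also common in blood cells (-1.68, adjusted p = 0.00166), the kinase Pak1 (-0.53, adjusted p = 0.00378) and the formin Diaph1 (-0.29, adjusted p = 0.0358). Foxo1, a transcription factor that Tek signalling keeps inactive and that promotes Angpt2, differed by 0.13 (adjusted p = 0.284), with 1453 to 2014 normalized counts without and 1721 to 2109.7 with PLX.

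Of 15 endothelial transcription factors, 6 were called higher with PLX in choroid and 0 lower, against 2.07% and 5.06% of all genes, with a median of 0.20. Sox17 (0.59, adjusted p = 0.0148 by limma), Gata2 (0.54, 0.0480), Klf4 (0.34, 0.0423), Erg (0.28, 0.0104), Sox18 (0.27, 0.0263) and Ets1 (0.20, 0.0202) were those called. The lowest values were those of Elf1 (-0.11, 0.360) and Fli1 (-0.15, 0.404). Of 7 angiopoietin-like genes, secreted relatives of the angiopoietins, 0 were called, with a median of 0.15. Among them Angptl2 differed by 0.15 (adjusted p = 0.214 by limma). In retina none of the tested genes in these 4 lists was called, 8, 26, 14 and 6 in number, with medians of -0.05, -0.02, -0.07 and 0.05. Sox18 (-0.48, adjusted p = 0.626 by limma) and Fli1 (-0.70, 0.320) were the transcription factors of lowest p there. Retinal Ptprb, at 699.7 ± 198 (SD, n = 10) without and 561 ± 108 normalized counts with PLX, differed by -0.29 (adjusted p = 0.889). The difference between the tissues was called for Pak1 alone among the 4 lists (-0.61, adjusted p = 0.00396 by limma), against 0.822% of all genes called in this direction.

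**Figure D5:**
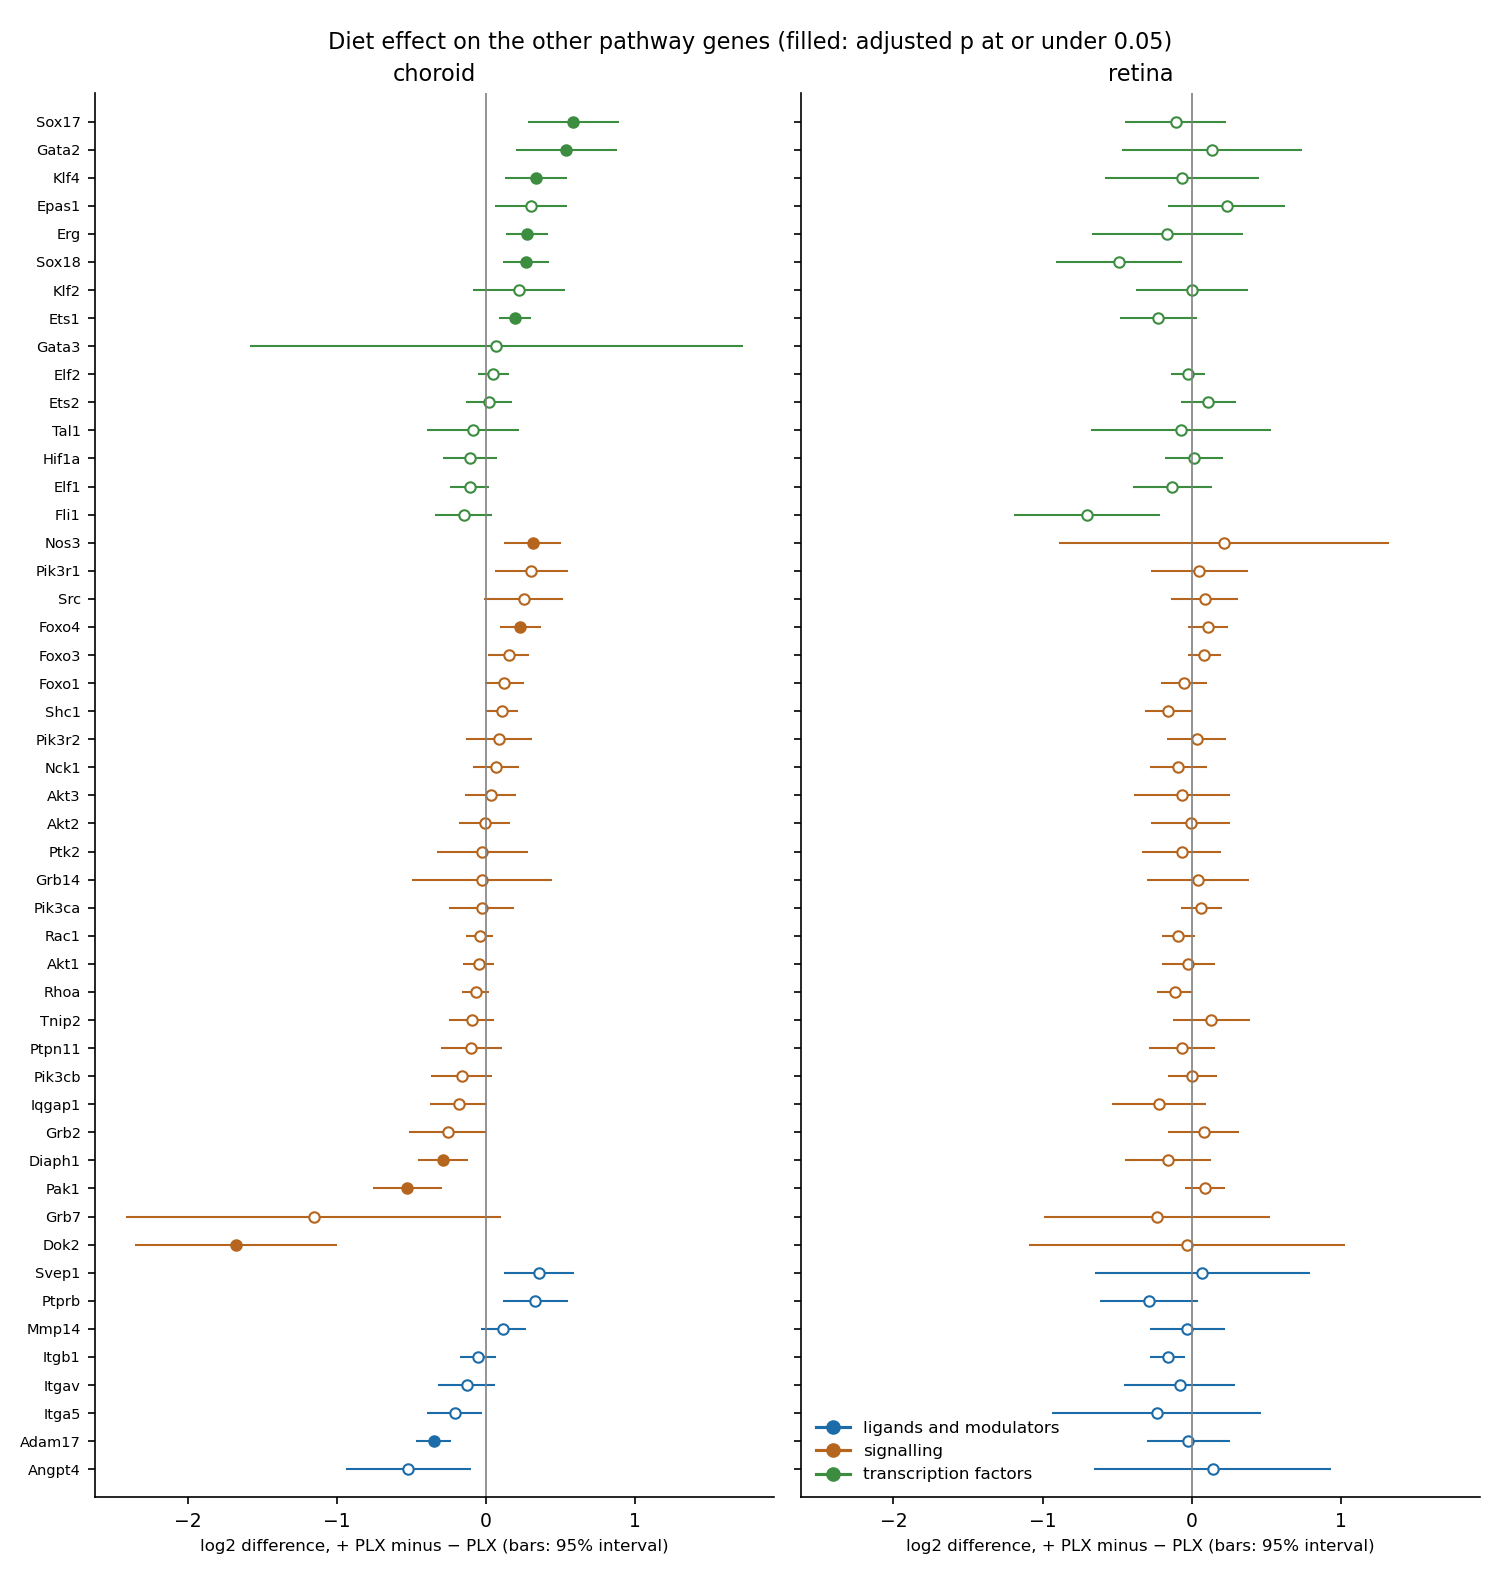
Log2 difference between mice with and without PLX for the tested genes of 3 lists, ligands and modulators, signalling genes and endothelial transcription factors, in choroid (left) and retina (right), with 95% intervals from limma and filled symbols at an adjusted p at or under 0.05. Filled points occur in choroid alone: 6 transcription factors, 5 signalling genes and Adam17.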

How the data were processed

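Choroid and retina RNA of 20 mice was sequenced and, per the labels and methods, the authors quantified transcripts with Salmon 1.10.1, scaled gene totals by DESeq2 1.36.0 and deposited the resulting signal per gene, here called normalized counts, which are neither whole numbers nor scaled to a fixed total. The values show that both tissues were scaled together: median-of-ratios factors recomputed over all 40 libraries were equal (1.00816 in each), while within a tissue they ranged from 0.983 to 1.03 in choroid and from 0.992 to 1.04 in retina. Between 46.1% and 73.5% of low values per library lay on steps of whole reads, so reads were not recovered and depth is approximate. Of 54307 identifiers, 53700 matched GENCODE release M39 of GRCm39; 607 did not.

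Genes with a mean of at least 1 in a tissue were tested with limma 3.58.1 (R 4.3.3, with its trend option) after adding 1 and taking log2. All 4 groups of a tissue shared the fit, without covariates. The tissue fit held 8 groups and did not pair the libraries of a mouse. An adjusted p at or under 0.05 was called, and fold changes of low genes are understated on this scale. Single values were compared by two-sided exact permutation over mice (smallest p 0.00794 for 5 against 5), and correlations by 100000 resamples (Python 3.11.15, scipy 1.17.1). The procedure was tested on simulated data. Library names in the labels gave both tissues of a mouse the same code apart from a tissue letter, and sex genes matched between them in 20 of 20 mice; their deviations from group means correlated at a median of 0.175 (from -0.197 to 0.363). Replicates are mice.

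Members and lists were chosen with earlier results of these data known. Named besides the members were Angpt4, Ptprb, Foxo1, from the pathway lists the 2 genes of lowest p in each direction and every called gene where fewer than 6 were called, and the 3 genes most like each member; not every gene so chosen is reported here. Gata2, Klf4, Sox18, Ets1, Cldn5, Egfl7, Esam, Pecam1, Myh11, Rgs5 and Lect2 were named after their values were seen. The study's covariates, sex and a neuronal percentage, were not in the labels; scores of sex genes and of neural retina (choroid) or pigment epithelium (retina) genes served as alternatives. Other alternatives were pseudocounts of 0.5 and 5, minimum means of 10 and none, 2 other scalings, robust variance, only the 10 mice compared, the mouse as block and leaving out each mouse.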

Additional observations from a re-analysis of the deposited data

Results flagged for a closer look

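The diet effect differed between choroid and retina for Tek, by 0.58 on the log2 scale (adjusted p = 0.00172 from limma), and for Tie1, by 0.64 (adjusted p = 0.0175). Both limma tests were a contrast of contrasts over the same 20 mice, without pairing the tissues of a mouse. The endothelial score differed between the tissues on the same side, by 0.48 (exact permutation p = 0.000441), with 0 of its 12 markers called by limma. The mural score differed by 0.39 (exact permutation p = 0.00523), with 2 of 10 markers called, against 0.543% of all genes. Relative to the endothelial score the difference between tissues was 0.10 for Tek and 0.16 for Tie1 (exact permutation p = 0.445 and 0.231).

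Relative to the endothelial score of the same library, choroid Tek had a genotype difference that was not the same under both diets: -0.09 without PLX and 0.10 with PLX, which differed by 0.20 (exact permutation test, p = 0.0178, unadjusted). Neither difference was detectable on its own (exact permutation p = 0.111 and 0.143), and without each mouse in turn the value lay between 0.16 and 0.23 (permutation p from 0.00671 to 0.039). The corresponding value was -0.08 for Tie1 (exact permutation p = 0.283). For choroid Tek itself it was 0.13 (exact permutation p = 0.216), and for the Tek ratio in retina 0.23 (p = 0.319). In the same contrast choroid scores differed by -2.30 for neural retina (exact permutation p = 0.0859), -1.85 for horizontal cells (0.0356) and 0.71 for skeletal muscle (0.362).

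No mouse stood apart in any of the 32 combinations of member, tissue and group by Dixon's criterion, which would mark 1.6 of them by chance at 1 in 20.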

How the results depend on the processing

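All 4 members stayed higher in choroid under every alternative run, and no member was called between genotypes, in the interaction or for diet in retina under any. With the mouse as the replicate block, 4 members were called between tissues and 2 for the difference of the diet effect, as without it, so no member call changed. For diet in choroid, 1 member was called with the neural retina score as covariate (Tie1) and 4 with upper quartile scaling, against 2. Leaving out each mouse gave 2 to 3 calls, the third being Angpt2 without mouse 5 or mouse 8, or Angpt1 without mouse 17. Angpt2 was also called by limma with a minimum mean of 10, which gave 3 called members. For the difference of the diet effect, leaving out each mouse gave 1 to 2 calls. Upper quartile scaling moved the median of all genes between tissues from -0.01 to -0.24. Over all genes, the genotype call without PLX in choroid went from 1 to 303 in a fit of only the 10 mice compared, to 411 without mouse 15 and to 0 with a minimum mean of 10. The calls for diet in retina went from 254 to 154 with that minimum, and those for the difference of the diet effect from 332 to 620 without mouse 15. The cause was not tested.

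Values close to 0 changed sign without being called. The genotype difference in choroid without PLX became -0.0089 for Angpt1 and -0.019 for Tek with medians of ratios within the tissue, -0.016 and -0.026 with upper quartile scaling, -0.0056 for Tek with the sex score and -0.16 for Angpt1 with the neural retina score. With PLX it became 0.0058 for Angpt1 and 0.012 for Tie1 with the sex score, and 0.0012 for Angpt1, 0.0065 for Angpt2 and 0.0027 for Tie1 with upper quartile scaling. Leaving out each mouse in turn, genotype differences without PLX ranged in choroid from -0.079 to 0.14 for Angpt1, from -0.13 to 0.050 for Angpt2 and from -0.024 to 0.053 for Tek, and in retina from -0.089 to 0.15 for Angpt1. With PLX they ranged in choroid from -0.072 to 0.11 for Angpt1, from -0.025 to 0.044 for Angpt2 and from -0.067 to 0.053 for Tie1, and in retina from -0.019 to 0.10 for Tek and from -0.14 to 0.0071 for Tie1. Retinal diet differences ranged from -0.033 to 0.14 for Angpt1 and from -0.10 to 0.060 for Angpt2. The log2 ratio of Angpt2 to Angpt1 ranged from -0.13 to 0.044 for diet in choroid and from -0.056 to 0.20 for its difference between tissues, and Tek relative to the endothelial score from -0.036 to 0.0012 for diet in choroid.

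Limits lie in depth and tissue. Retinal members had at most 272 normalized counts, and their genotype intervals were wider than those in choroid. Choroids held varying amounts of neural retina and skeletal muscle RNA. Gene totals of Tgfbr2 in whole tissue did not show the deletion, which the paper reports in choroidal and retinal endothelium. Reads could not be recovered, so no count model was run.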
